A study of Anthurium andraeanum with 18 samples.

Results

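Nitrogen assimilation and asparagine synthesis in the leaf were followed through 59 assembled genes of Anthurium andraeanum, an evergreen aroid grown for its spathes. A gene was taken when its description named 1 of 10 enzyme or transporter families, from nitrate reductase to asparagine synthetase, and 59 of 158487 assembled genes did. The leaves came from full-flowering plants of 2 materials, called MH and Ken in the titles, kept in growth chambers with a day and a night of 12 h each. The 6 groups were MH control and Ken control (25 °C throughout), MH 38 and Ken 38 (3 days at 38 °C by day and 33 °C by night), and MH 40 and Ken 40 (the same treatment followed by 3 days at 40 °C by day and 35 °C by night). Each group had 3 libraries, 18 in all. The titles give no number of days for the controls. The labels give no genotype, and neither name (MH, Ken) is explained in them. Replicates are named as biological in the titles, and separate plants are not mentioned, so the p-values cover the spread among these libraries, which may be technical.

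Plants reduce nitrate to nitrite with nitrate reductase in the cytosol and nitrite to ammonium with nitrite reductase in the plastid. Glutamine synthetase fixes ammonium onto glutamate to give glutamine, in a chloroplast form that in leaves also recaptures the ammonium of photorespiration and in cytosolic forms that serve transport. Glutamate synthase then passes the amide nitrogen of glutamine to 2-oxoglutarate, with ferredoxin or NADH as the electron donor. Asparagine synthetase moves that amide nitrogen onto aspartate, which aspartate aminotransferase supplies. Asparagine carries much nitrogen per carbon and is a known transport and storage form in leaves short of carbon. Asparaginase releases its nitrogen again, glutamate dehydrogenase can split glutamate to ammonium and 2-oxoglutarate, and glutamate decarboxylase turns glutamate into GABA. No chromosome position is given for these transcripts, and no genome sequence was used.

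Of the 59 entries, 57 were described by Swiss-Prot and 2 by the nr database, with lengths of 223 to 9024 bases and a median of 1747. They fall into 41 assembly clusters, and 14 clusters hold several members (32 in all), which may be alleles, copies or fragments of 1 gene and are therefore not independent. After a filter on low counts 51 members were tested. The 8 others were 321 bases or shorter and held at most 47 counts over all libraries. The description rule also took in entries of other proteins: FPGS2 and FPGS1 are folylpolyglutamate synthases, which add glutamate to folates, ASNSD1 is an asparagine synthetase domain protein matched to chicken, and aspC is an aromatic aminotransferase in its nr description. TRINITY_DN63879_c1_g1 is an ammonium transporter by its nr description only, while its orthology entry is an exosome subunit. The untested TRINITY_DN47699_c1_g1 is a ferredoxin glutamate synthase by its nr description only, while its orthology entry is an RNA polymerase subunit. In the following, levels are TPM as deposited (transcript abundance, scaled by gene length), with mean ± SD over 3 libraries. Log2 changes are edgeR estimates ± SE, and rose, fell, higher and lower refer to a Benjamini-Hochberg adjusted p below 0.05 over all 70022 tested genes in edgeR's quasi-likelihood test.

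Libraries held 15845190 to 22867268 counts. The edgeR scaling factors (TMM) differed between groups, and taken over every tested gene the median log2 change was 0.73 in MH 38, 1.03 in MH 40, 0.42 in Ken 38 and 0.30 in Ken 40. For described genes alone it was -0.08, -0.29, -0.07 and -0.10. Scaling by library totals alone moved the medians over every gene to 1.55, 2.02, 0.97 and 0.76, so a small change, above all in MH, depends on the scaling. A list of 54 leaf mesophyll markers (light-harvesting proteins, Rubisco small subunits, photosystem I subunits and glycolate oxidase) summed to 136100 to 158000 TPM in MH control, 1677 to 31340 TPM in MH 38 and 288 to 761 TPM in MH 40. In Ken they summed to 95090 to 115200 TPM in the control, 17280 to 20380 TPM at 38/33 °C and 958 to 1194 TPM at 40/35 °C. Of the 54 markers 12, 11 and 20 were at 0 in all libraries of these MH groups, and 9, 9 and 10 in those of the Ken groups. The part of this loss in the falls reported below was not tested, and in bulk leaf RNA fewer cells of a type and less RNA per cell cannot be told apart. MH 38 replicate 3 stood apart: it held 31340 TPM of these markers, against 2991 and 1677 TPM in replicates 1 and 2.

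Other marker lists moved too, and their part in the results was not tested. A list of 22 xylem markers summed to 772 to 1182, 281.5 to 337.2 and 132.6 to 157.9 TPM in MH control, MH 38 and MH 40, and to 470.1 to 698, 163 to 168.9 and 104.8 to 110 TPM in the Ken groups. A list of 72 root markers, most of them metal-nicotianamine transporters by description, summed to 1166 to 1449, 392 to 460.6 and 410.2 to 621.3 TPM in MH, and to 655 to 799.2, 294.4 to 310.1 and 364.8 to 460.6 TPM in Ken. A text pattern for animal proteins took 12 entries, among them plant trypsin/chymotrypsin inhibitors and plant chemocyanins, so it does not mark animal cells. Its entries summed to 858.4 to 2356, 546.4 to 7822 and 78.17 to 237.5 TPM in MH, where MH 38 replicate 3 held the 7822 TPM, and to 1224 to 1530, 5245 to 9768 and 978.8 to 3216 TPM in Ken. At most 2 of the 12 were at 0 in all libraries of a group, as were at most 2 of the xylem and 4 to 25 of the root markers. The 2 entries of a fungal list summed to at most 20.48 TPM.

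The leading transcript of the group differed between heated and unheated leaves. In every heated group AS1, an asparagine synthetase, was the most abundant member, with 28.6% of the member TPM in MH 38, 30% in MH 40, 47.5% in Ken 38 and 44.4% in Ken 40. In unheated leaves 3 glutamine synthetase entries led, with 30.4%, 24.5% and 21.3% of the summed TPM of all members in MH control and 28.6%, 24.3% and 19.9% in Ken control. The sum over all 59 entries was 7039 ± 574 TPM in MH control, 1944 ± 220 in MH 38 and 1671 ± 73.9 in MH 40. Ken control summed to 8030 ± 422 TPM, Ken 38 to 2173 ± 240 and Ken 40 to 3405 ± 154. The heated libraries of both materials lay below all of their controls, and only in Ken did the sum at 40/35 °C lie above all libraries at 38/33 °C.

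**Figure D1:**
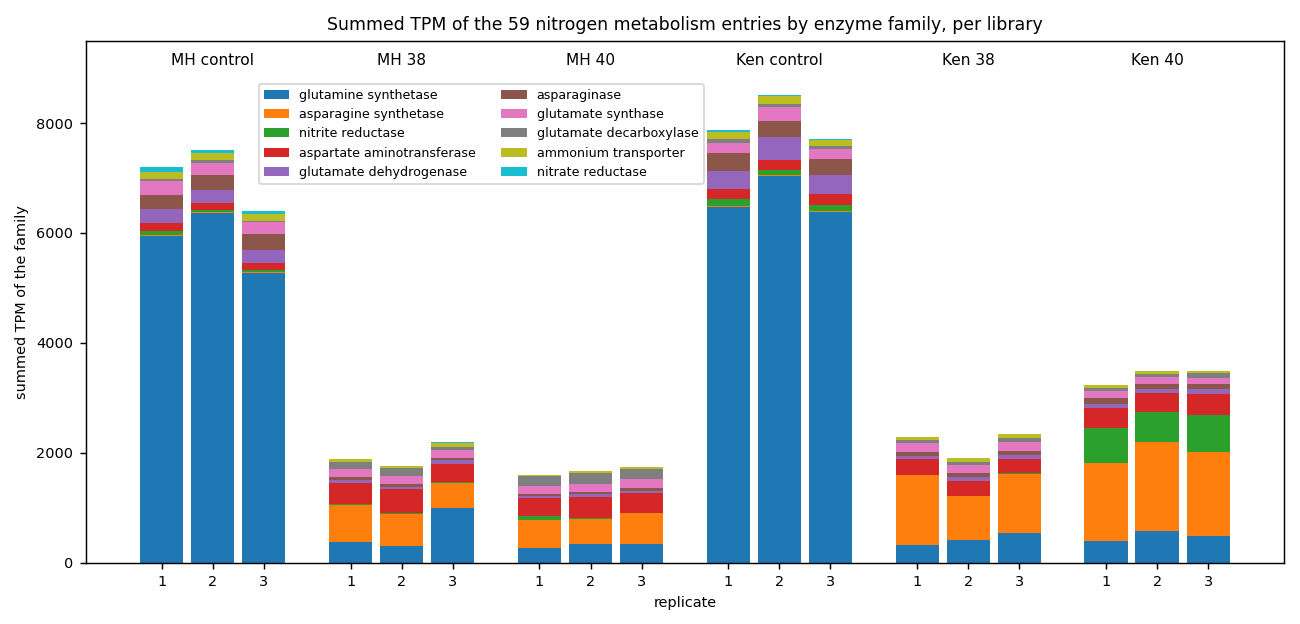
Summed TPM (vertical axis) of the 59 nitrogen metabolism entries in each of the 18 libraries (bars, grouped by material and temperature), stacked by enzyme family. In the heated libraries asparagine synthetase holds 460 to 1617 TPM, and nitrite reductase 539 to 679 TPM in Ken 40, while glutamine synthetase fills most of each control bar (5272 to 7034 TPM).

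Most tested members changed, and most of those fell. In MH 38 against MH control 8 members rose and 33 fell, so 80.4% of the 51 were called. The background was 47.4% of all tested genes and 53.8% of described ones (23.2% rose, 30.6% fell). In MH 40 against MH control 11 rose and 30 fell, again 80.4%, with a background of 67.4% of all genes and 71.7% of described ones (29.7% rose, 42.1% fell). In Ken 38 against Ken control 6 rose and 30 fell, or 70.6%, with a background of 36.2% of all genes and 48% of described ones (18.8% rose, 29.2% fell). In Ken 40 against Ken control 13 rose and 28 fell, or 80.4%, with a background of 45.8% of all genes and 55.9% of described ones (23.4% rose, 32.5% fell). The median log2 change of the members was -1.36, -1.83, -1.73 and -1.66 in these 4 comparisons. Members that passed the filter only through a group where they were high had to differ, so these shares describe the list and support nothing about it. Without the 5 tested entries of another annotation the counts were 7 and 30, 10 and 28, 6 and 27, and 12 and 26.

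**Figure D2:**
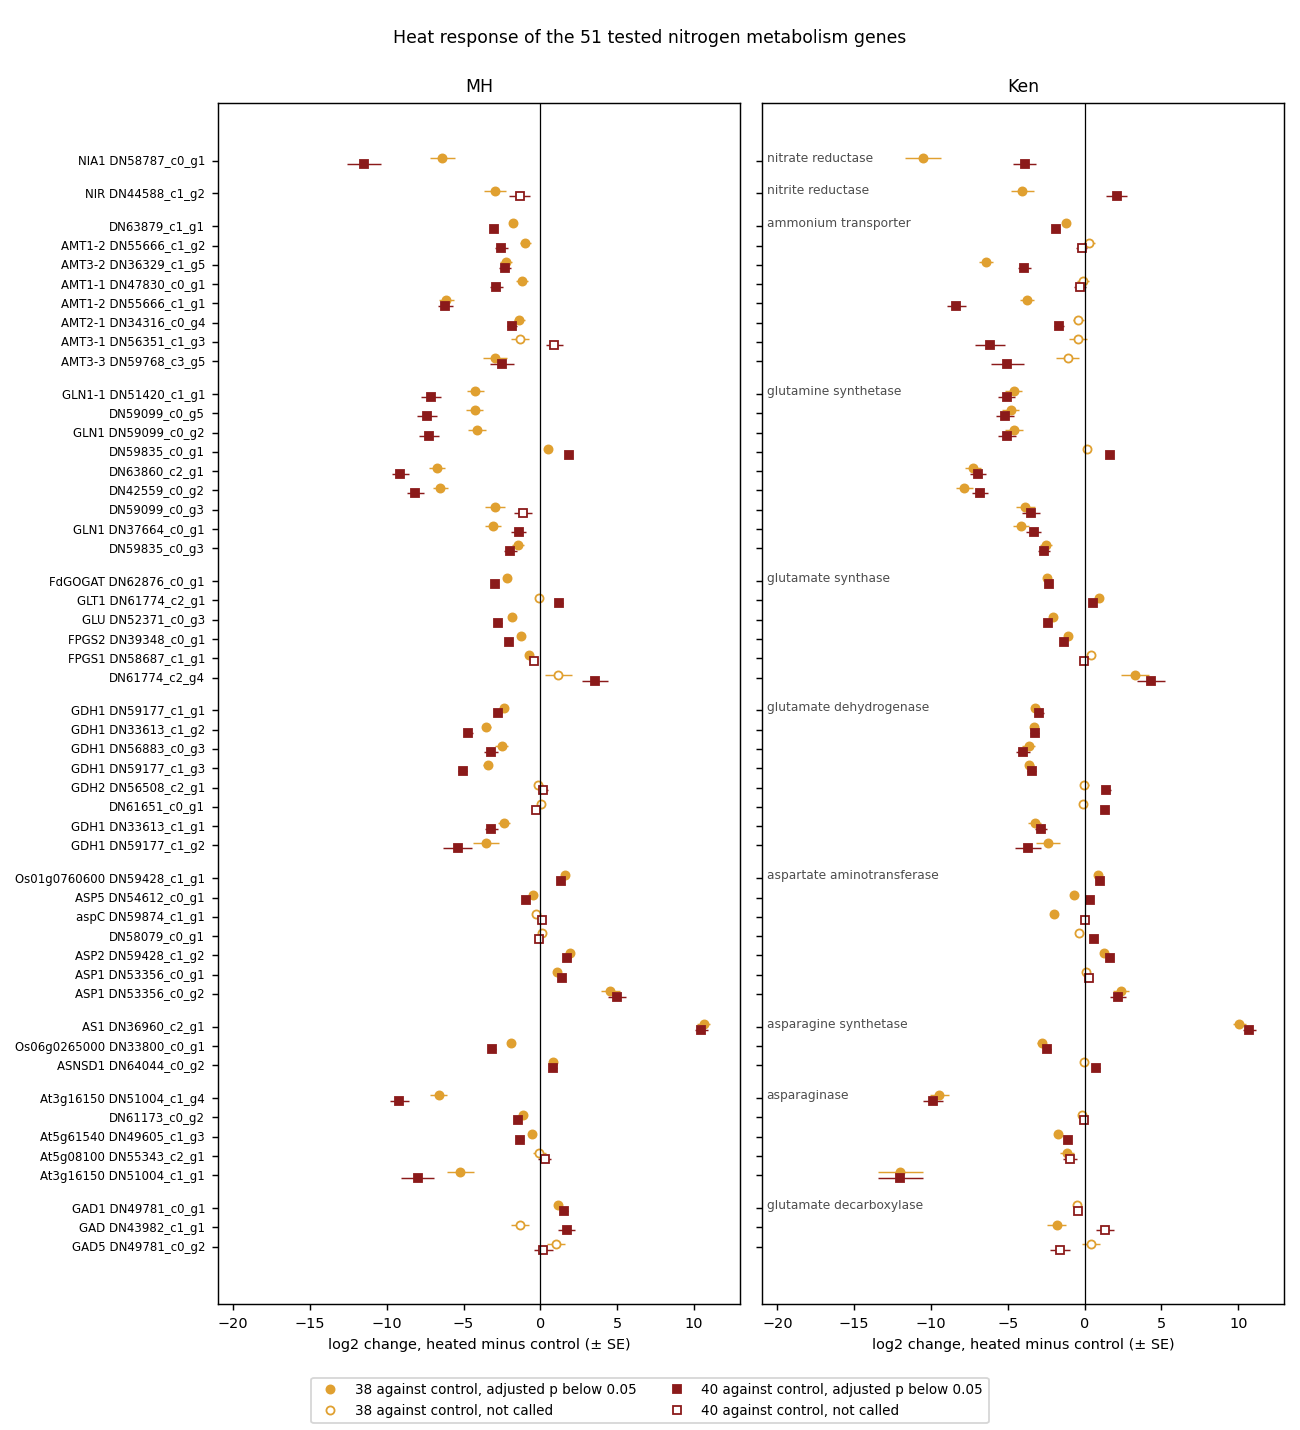
Log2 change ± SE (horizontal axis) of each of the 51 tested members (rows, ordered by enzyme family) in MH (left) and Ken (right), with circles for 38/33 °C and squares for 40/35 °C against the control of the same material. Filled symbols passed an adjusted p of 0.05 in edgeR. AS1 stands alone beyond 10 on the right, while glutamine synthetase, glutamate dehydrogenase 1 and asparaginase entries lie far to the left.

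The 2 enzymes of nitrate reduction fell at 38/33 °C in both materials and parted at 40/35 °C. NIA1 (TRINITY_DN58787_c0_g1), the NADH nitrate reductase, had 84.9, 50.8 and 63.0 TPM in MH control, 0.64, 0.22 and 1.95 TPM in MH 38, and 0.07, 0.01 and 0 TPM in MH 40. In Ken it had 20.6, 13.3 and 11.6 TPM in the control, 0.02, 0 and 0 TPM at 38/33 °C and 0.60, 0.92 and 2.06 TPM at 40/35 °C. No heated library reached a control library of its material. The log2 change was -6.39 ± 0.81 in MH 38 (adjusted p = 4.58e-05; -7.56 without replicate 3), -11.50 ± 1.10 in MH 40 (adjusted p = 1.65e-06, 6 counts in all) and -3.90 ± 0.73 in Ken 40 (adjusted p = 0.000806). Ken 38 held 2 counts of NIA1 in all, against 2436 in Ken control, a ratio per library total of 0.000847 (exact 95% interval 0.000103 to 0.00306, counting error only; adjusted p = 1.54e-05). The other 2 nitrate reductase entries were 321 bases or shorter and were not tested.

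NIR (TRINITY_DN44588_c1_g2), the ferredoxin nitrite reductase, had 71.4, 31.3 and 37.0 TPM in MH control, 16.5, 6.92 and 6.10 TPM in MH 38, and 70.9, 15.9 and 6.78 TPM in MH 40. Its levels in Ken were 122, 97.1 and 113 TPM in the control, 7.52, 9.11 and 11.2 TPM at 38/33 °C, and 642, 539 and 679 TPM at 40/35 °C. NIR therefore fell at 38/33 °C in both materials, by -2.97 ± 0.71 in MH (adjusted p = 0.00468) and -4.05 ± 0.74 in Ken (adjusted p = 0.000929). At 40/35 °C all Ken libraries lay above every other library of the study and NIR rose against Ken control, by 2.08 ± 0.68 (adjusted p = 0.0245), a call kept in 13 of 18 fits that left out 1 library. In MH 40 it overlapped the control, with a change of -1.35 ± 0.67 (adjusted p = 0.0909), and replicate 1 lay far above replicates 2 and 3. NIR was higher in Ken 40 than in Ken 38 by 6.13 ± 0.82 (adjusted p = 0.000137).

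Ammonium transporters, membrane channels that bring ammonium into the cell, fell in most comparisons with the controls and rose in none of these. Of 8 tested entries 7 fell in MH 38, 7 in MH 40, 3 in Ken 38 and 6 in Ken 40. AMT3-2 (TRINITY_DN36329_c1_g5) had 28.03, 19.1 and 8.44 TPM in MH control, 9.03, 7.90 and 3.15 TPM in MH 38, and 4.5, 7.82 and 7.07 TPM in MH 40. The Ken libraries held 56.6, 57.2 and 44.6 TPM in the control, 0.85, 0.53 and 1.18 TPM at 38/33 °C, and 3.96, 4.62 and 5.08 TPM at 40/35 °C. The Ken groups were far apart, while in TPM 1 MH 38 library overlapped MH control. Its log2 change was -2.21 ± 0.39 in MH 38, -2.28 ± 0.40 in MH 40, -6.42 ± 0.48 in Ken 38 and -3.93 ± 0.42 in Ken 40 (adjusted p = 0.000345, 0.000141, 4.85e-08 and 2.06e-06).

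One AMT1-2 entry (TRINITY_DN55666_c1_g1) averaged 30.6 TPM in MH control, 0.700 in MH 38 and 0.710 in MH 40, and 11.5, 1.18 and 0.0433 TPM in the Ken groups of the same order. It fell in all 4 comparisons, by -6.11 ± 0.49, -6.18 ± 0.49, -3.76 ± 0.44 and -8.35 ± 0.62, and the last value rests on 8 counts in Ken 40. A second AMT1-2 entry of the same cluster (TRINITY_DN55666_c1_g2) and AMT1-1 (TRINITY_DN47830_c0_g1) fell in MH 40 and were not called in Ken, except that this AMT1-2 entry was called in Ken 38 (0.87) with library totals as the scaling. The second AMT1-2 entry had 2.45, 6.20 and 5.80 TPM in MH 40, against 17.2, 15.2 and 17.4 TPM in MH control (-2.53 ± 0.39, adjusted p = 4.22e-05). In Ken 40 it had 16.7, 21.5 and 21.8 TPM, against 18.3, 17.3 and 16.3 TPM in Ken control (-0.19 ± 0.37, adjusted p = 0.716). AMT1-1 changed by -2.87 ± 0.41 in MH 40 (adjusted p = 4.16e-06) and -0.29 ± 0.39 in Ken 40 (adjusted p = 0.568).

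Their falls in MH 38 were smaller and turned on 1 library. The second AMT1-2 entry changed by -0.98 ± 0.37 in MH 38 (adjusted p = 0.0414) and by -1.72 without MH 38 replicate 3, and AMT1-1 changed by -1.22 ± 0.39 (adjusted p = 0.0137) and by -1.97 without it. With library totals as the only scaling neither was called in MH 38. AMT2-1 (TRINITY_DN34316_c0_g4) fell in MH 38, MH 40 and Ken 40 by -1.36 ± 0.33, -1.83 ± 0.34 and -1.67 ± 0.35, the first of which was also lost with library totals. TRINITY_DN63879_c1_g1, the entry of doubtful identity, fell in all 4 comparisons, by -1.23 ± 0.23 in Ken 38 to -3.04 ± 0.25 in MH 40.

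Glutamine synthetase lost its main leaf transcripts, both cytosolic and chloroplastic, and 1 entry rose. Of 9 tested entries 8 fell and 1 rose in MH 38, 7 fell and 1 rose in MH 40, 8 fell in Ken 38, and 8 fell and 1 rose in Ken 40. GLN1-1 (TRINITY_DN51420_c1_g1), a cytosolic form and the most abundant member of unheated leaves, had 2212, 2310 and 1902 TPM in MH control, 104, 77.7 and 353 TPM in MH 38, and 26.5, 24.0 and 25.3 TPM in MH 40. Ken leaves had 2147, 2490 and 2249 TPM in the control, 88.2, 138 and 163 TPM at 38/33 °C, and 58.3, 113 and 99.3 TPM at 40/35 °C. Every heated library lay far below every control library, the highest at 353 TPM and the lowest control at 1902 TPM. The log2 change was -4.22 ± 0.55 in MH 38, -7.13 ± 0.63 in MH 40, -4.62 ± 0.56 in Ken 38 and -5.08 ± 0.58 in Ken 40 (adjusted p = 5.31e-05, 7.17e-07, 2.76e-05 and 1.16e-05). Without MH 38 replicate 3 the first of these was -5.33.

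TRINITY_DN59099_c0_g5 (nodule isozyme by description) and GLN1 (TRINITY_DN59099_c0_g2, cytosolic isozyme) also fell in all 4 comparisons, by -4.14 ± 0.57 to -7.36 ± 0.65. They are entries of 550 and 888 bases in 1 cluster and may share reads with GLN1-1. The 3 entries together summed to 5366 ± 536 TPM in MH control, 454 ± 392 in MH 38 and 59.4 ± 3.64 in MH 40, and to 5845 ± 323, 320 ± 104 and 222 ± 67.8 TPM in the Ken groups. MH 38 replicate 3 held 905 TPM of them, against 272 and 186 TPM in replicates 1 and 2.

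The chloroplastic leaf isozyme was carried by TRINITY_DN63860_c2_g1 and TRINITY_DN42559_c0_g2. The first had 293, 285 and 288 TPM in MH control, 3.88, 2.16 and 7.31 TPM in MH 38, and 0.62, 0.59 and 1.06 TPM in MH 40. In Ken it had 360, 367 and 370 TPM in the control, 1.82, 1.97 and 4.13 TPM at 38/33 °C, and 2.89, 2.30 and 4.04 TPM at 40/35 °C. The groups were far apart in both materials, and the change was -6.73 ± 0.50 in MH 38, -9.11 ± 0.57 in MH 40, -7.26 ± 0.52 in Ken 38 and -6.95 ± 0.51 in Ken 40 (adjusted p at most 1.84e-07). Without MH 38 replicate 3 the value in MH 38 was -7.56. TRINITY_DN42559_c0_g2 fell by -6.51 ± 0.50, -8.13 ± 0.55, -7.83 ± 0.54 and -6.84 ± 0.51.

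A second entry described as nodule isozyme (TRINITY_DN59835_c0_g1) went the other way. It had 40.5, 46.8 and 27.1 TPM in MH control, 88.7, 111 and 63.6 TPM in MH 38, and 185, 258 and 256 TPM in MH 40. Its levels in Ken were 52.0, 58.2 and 53.4 TPM in the control, 84.7, 79.3 and 84.1 TPM at 38/33 °C, and 200, 266 and 206 TPM at 40/35 °C. All libraries at 40/35 °C lay above all others. It rose by 1.88 ± 0.19 in MH 40 (adjusted p = 3.88e-08) and 1.67 ± 0.19 in Ken 40 (adjusted p = 3.69e-07), and by 0.47 ± 0.19 in MH 38 (adjusted p = 0.0432). In Ken 38 the change was 0.14 ± 0.19 (adjusted p = 0.593), and with library totals as the scaling it was called there at 0.71. It was the most abundant glutamine synthetase entry at 40/35 °C in both materials, at 233 ± 41.5 TPM in MH 40 and 224 ± 36.4 TPM in Ken 40.

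A further GLN1 entry (TRINITY_DN37664_c0_g1, matched to alder) differed between the materials before any heat. It had 12.5, 9.08 and 6.69 TPM in MH control, against 103, 112 and 85.2 TPM in Ken control (-3.54 ± 0.50, adjusted p = 0.000111). It fell in all 4 heat comparisons, by -3.10 ± 0.53 in MH 38, -1.42 ± 0.48 in MH 40, -4.16 ± 0.51 in Ken 38 and -3.32 ± 0.49 in Ken 40, and in MH 40 the call was lost both with library totals and with TMM factors of described genes as the scaling. TRINITY_DN59835_c0_g3, another entry described as nodule isozyme, fell in all 4 comparisons by -1.47 ± 0.39 to -2.64 ± 0.41, and its call in MH 38 was lost with library totals.

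**Figure D3:**
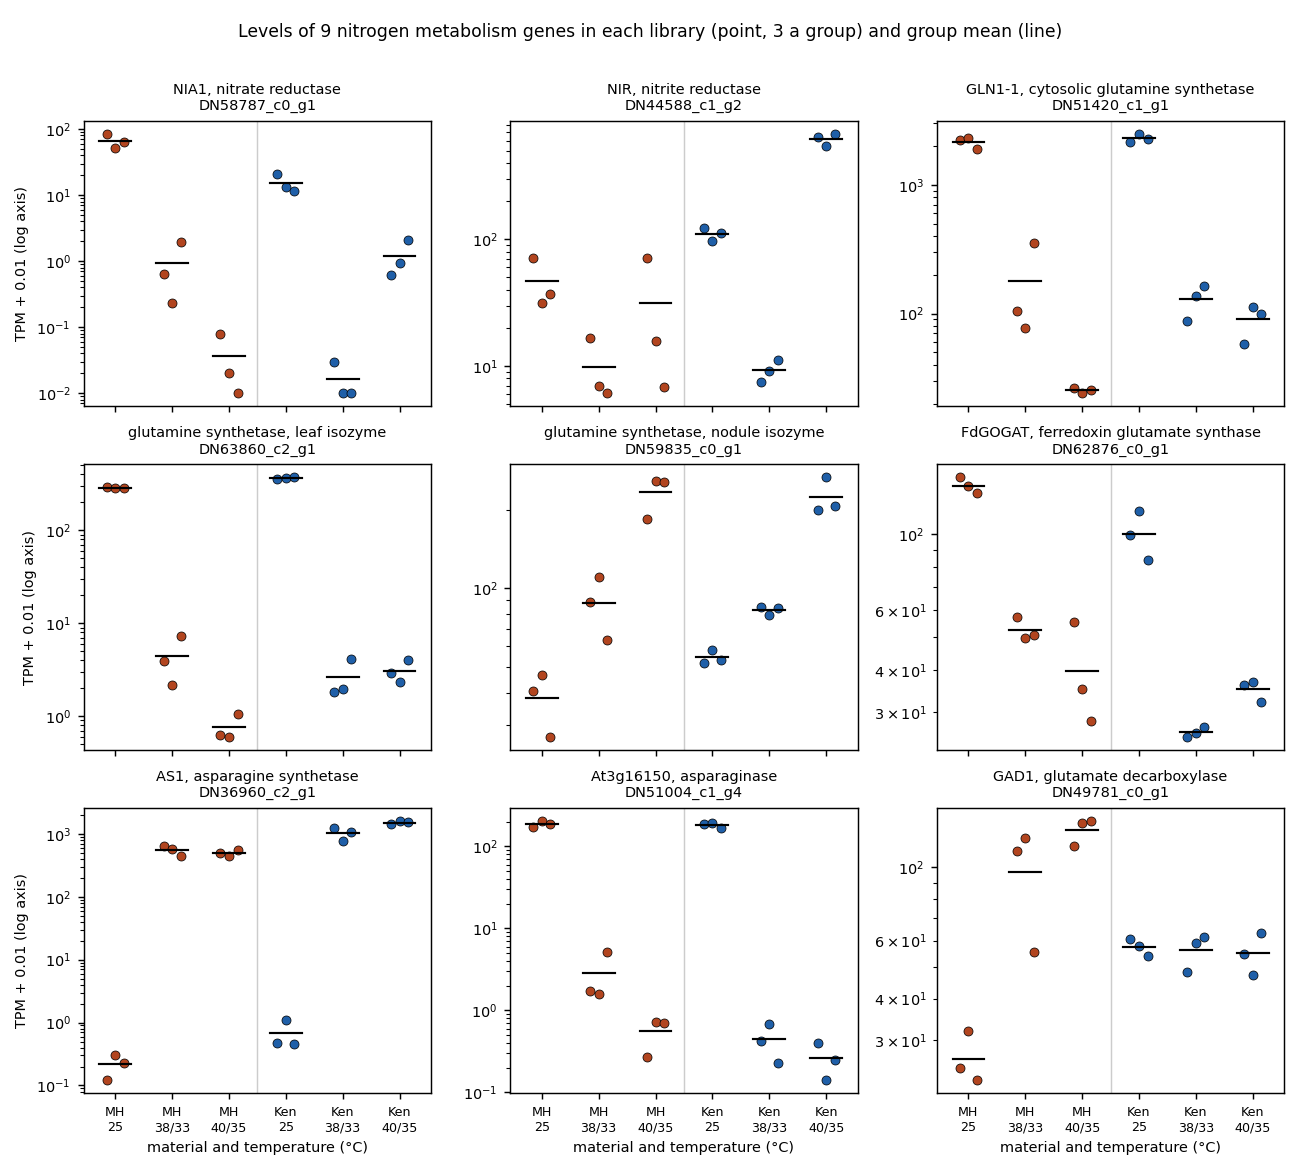
TPM + 0.01 on a log axis (vertical) for 9 members in each library (points, 3 a group) with the group mean (line), by material and temperature (horizontal; MH left, Ken right). AS1 stands at 447 TPM or more in every heated library and at 1.07 TPM or less in every control, GLN1-1 and the leaf isozyme are low in all heated libraries, and NIR reaches 539 to 679 TPM in Ken 40 while its 3 MH 40 libraries spread from 6.78 to 70.9 TPM.

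Among glutamate synthases the ferredoxin entries fell and the main NADH entry rose in 3 of 4 comparisons. FdGOGAT (TRINITY_DN62876_c0_g1), the ferredoxin enzyme of the chloroplast, had 147, 138 and 132 TPM in MH control, 57.2, 49.6 and 50.5 TPM in MH 38, and 55.5, 35.1 and 28.4 TPM in MH 40. The Ken libraries held 99.5, 117 and 84.1 TPM in the control, 25.4, 26.1 and 27.2 TPM at 38/33 °C, and 36.2, 36.9 and 32.2 TPM at 40/35 °C. It fell in all 4 comparisons without overlap, by -2.17 ± 0.17 in MH 38, -2.95 ± 0.17 in MH 40, -2.48 ± 0.17 in Ken 38 and -2.30 ± 0.17 in Ken 40 (adjusted p at most 1.9e-09). GLU (TRINITY_DN52371_c0_g3), a second ferredoxin entry, fell by -1.87 to -2.74.

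GLT1 (TRINITY_DN61774_c2_g1), the NADH glutamate synthase, had 21.4, 15.8 and 14.5 TPM in MH control, 23.0, 26.4 and 30.8 TPM in MH 38, and 47.7, 64.1 and 94.8 TPM in MH 40. Ken leaves had 15.1, 17.4 and 15.02 TPM in the control, 43.0, 39.6 and 55.9 TPM at 38/33 °C, and 29.3, 28.5 and 34.6 TPM at 40/35 °C. It rose by 1.23 ± 0.21 in MH 40 (adjusted p = 4.1e-05), 0.94 ± 0.21 in Ken 38 (adjusted p = 0.00124) and 0.52 ± 0.21 in Ken 40 (adjusted p = 0.0474, called in 9 of 18 fits without 1 library). In MH 38 the change was -0.09 ± 0.21 (adjusted p = 0.745), and with library totals as the scaling it was called there at 0.73. In Ken the ferredoxin form summed to 42.4 ± 2.74 TPM and the NADH form to 47.9 ± 9.05 TPM at 38/33 °C, against 142 ± 26.8 and 16.0 ± 1.29 TPM in the control. The ferredoxin sums include TRINITY_DN47699_c1_g1, of doubtful identity, with 2.12, 1.1 and 1.95 TPM in Ken 38 and 0, 0 and 2.09 TPM in Ken control.

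The folylpolyglutamate synthases, which are other proteins taken in by the description rule, are given separately. FPGS2 (TRINITY_DN39348_c0_g1) fell in all 4 comparisons, by -1.10 ± 0.17 in Ken 38 to -2.07 ± 0.17 in MH 40, with the call in MH 38 lost under library totals. FPGS1 (TRINITY_DN58687_c1_g1) fell in MH 38 by -0.71 ± 0.20 (adjusted p = 0.00534), which turned to 0.10 with library totals as the scaling. Its change in Ken 38, 0.42 ± 0.19 (adjusted p = 0.0969), was called at 0.99 with that scaling, at 0.70 with TMM factors of described genes, and at 0.47 both with RLE size factors and with DESeq2.

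Glutamate dehydrogenase fell through its 6 GDH1 entries, the NAD enzyme of mitochondria, in all 4 comparisons. The entries summed to 226 ± 10.6 TPM in MH control, 40.6 ± 13.5 in MH 38 and 19.3 ± 4.08 in MH 40, and to 351 ± 43.3, 46.4 ± 8.09 and 47.3 ± 5.15 TPM in the Ken groups. They lie in 3 assembly clusters and may be fewer than 6 genes. TRINITY_DN33613_c1_g2 had 65.8, 70.6 and 63.3 TPM in MH control, 8.30, 5.38 and 13.9 TPM in MH 38, and 5.90, 3.43 and 3.76 TPM in MH 40. In Ken it had 75.9, 81.8 and 76.2 TPM in the control, 10.1, 10.6 and 12.4 TPM at 38/33 °C, and 9.87, 12.7 and 9.13 TPM at 40/35 °C. Control and heated libraries did not overlap, and the changes were -3.53 ± 0.29 in MH 38, -4.68 ± 0.31 in MH 40, -3.29 ± 0.28 in Ken 38 and -3.26 ± 0.28 in Ken 40 (adjusted p at most 1.04e-08).

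The 2 other tested glutamate dehydrogenases rose in Ken 40. GDH2 (TRINITY_DN56508_c2_g1) had 16.3, 9.85 and 11.9 TPM in Ken 40, against 4.21, 4.87 and 5.88 TPM in Ken control (1.42 ± 0.28, adjusted p = 0.000294). In MH 40 it had 8.97, 22.6 and 20.8 TPM, against 4.72, 6.71 and 6.48 TPM in MH control, also without overlap in TPM, but the fitted change was 0.19 ± 0.28 (adjusted p = 0.555), and it was called at 1.18 with library totals and at 0.77 with TMM factors of described genes. TRINITY_DN61651_c0_g1, matched to an NADP-specific enzyme of Giardia, had 21.4, 16.9 and 16.9 TPM in Ken 40, against 5.43, 5.70 and 5.22 TPM in Ken control (1.35 ± 0.18, adjusted p = 3.28e-06). In MH 40 its change was -0.26 ± 0.18 (adjusted p = 0.207), and with library totals as the scaling it turned to 0.75 and was called.

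Aspartate aminotransferases, which make the aspartate that asparagine synthetase uses, rose more often than they fell. Of 7 tested entries 4 rose and 1 fell in MH 38 and in MH 40, 3 rose and 2 fell in Ken 38, and 5 rose in Ken 40. The main entry, Os01g0760600 (TRINITY_DN59428_c1_g1, cytoplasmic), had 47.8, 46.7 and 45.1 TPM in MH control, 242, 273 and 197 TPM in MH 38, and 194, 222 and 210 TPM in MH 40. Its levels in Ken were 72.8, 70.5 and 73.0 TPM in the control, 187, 180 and 171 TPM at 38/33 °C, and 185, 166 and 216 TPM at 40/35 °C. All heated libraries lay above all controls. It rose by 1.61 ± 0.14 in MH 38, 1.37 ± 0.14 in MH 40, 0.84 ± 0.13 in Ken 38 and 0.98 ± 0.13 in Ken 40 (adjusted p = 6.47e-09, 1.99e-08, 3.33e-05 and 3.64e-06).

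ASP2 (TRINITY_DN59428_c1_g2), a cytoplasmic entry of the same cluster, rose by 1.96 ± 0.20, 1.76 ± 0.20, 1.24 ± 0.20 and 1.63 ± 0.20 in the same order. ASP1 (TRINITY_DN53356_c0_g1), the mitochondrial enzyme, rose in MH 38 by 1.11 ± 0.21 (adjusted p = 0.000171) and in MH 40 by 1.42 ± 0.21 (adjusted p = 4.37e-06), and its changes in Ken were 0.10 ± 0.20 and 0.30 ± 0.20 (adjusted p = 0.753 and 0.234), both called with library totals as the scaling, at 0.67 and 0.78. In Ken 40 ASP1 was also called with RLE size factors (0.49), TMM factors of described genes (0.55) and DESeq2 (0.48). ASP5 (TRINITY_DN54612_c0_g1), the chloroplastic enzyme, had 57.0, 62.0 and 61.4 TPM in MH 38 and 44.8, 49.1 and 49.1 TPM in MH 40, against 50.8, 45.9 and 47.4 TPM in MH control. The Ken libraries held 40.8, 39.6 and 44.3 TPM at 38/33 °C and 84.4, 73.9 and 80.7 TPM at 40/35 °C, against 49.0, 46.4 and 48.1 TPM in the control. Relative to the other genes of its libraries it fell in MH 40 by -0.94 ± 0.14 (adjusted p = 8.83e-06), a change that was 0.056 with library totals as the scaling, and in MH 38 by -0.47 ± 0.14 (adjusted p = 0.0109), which turned to 0.35 with that scaling. It fell in Ken 38 by -0.68 ± 0.14 (adjusted p = 0.000698; -0.11 and not called with library totals) and rose in Ken 40 by 0.35 ± 0.14 (adjusted p = 0.0497), a call kept in 2 of 18 fits without 1 library. The aminotransferase aspC (TRINITY_DN59874_c1_g1) was called in Ken 38 alone, where it fell, with 9.56, 13.6 and 10.2 TPM, against 33.6, 31.3 and 45.9 TPM in Ken control (-2.004 ± 0.21, adjusted p = 1.22e-07). With library totals as the scaling it was also called in MH 38 (0.58) and MH 40 (1.10), and in MH 40 with TMM factors of described genes (0.69).

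AS1 (TRINITY_DN36960_c2_g1), the glutamine-dependent asparagine synthetase, was close to silent without heat. It had 0.11, 0.30 and 0.22 TPM in MH control, 654, 569 and 447 TPM in MH 38, and 503, 451 and 549 TPM in MH 40. Ken leaves had 0.47, 1.07 and 0.45 TPM in the control, 1254, 782 and 1059 TPM at 38/33 °C, and 1413, 1602 and 1521 TPM at 40/35 °C. The lowest heated library, at 447 TPM, lay far above the highest control library, at 1.07 TPM. The log2 change was 10.63 ± 0.42 in MH 38, 10.47 ± 0.41 in MH 40, 10.07 ± 0.40 in Ken 38 and 10.72 ± 0.41 in Ken 40 (adjusted p = 3.54e-11, 5.57e-12, 1.88e-11 and 7.89e-12). The level at 38/33 °C did not differ from that at 40/35 °C beyond the test's threshold in either material (MH 40 minus MH 38 -0.16 ± 0.27, adjusted p = 0.699; Ken 40 minus Ken 38 0.65 ± 0.27, adjusted p = 0.0789).

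AS1 was lower in MH than in Ken at each temperature, by -1.70 ± 0.35 in the controls (adjusted p = 0.00192), -1.14 ± 0.27 at 38/33 °C (adjusted p = 0.00404) and -1.95 ± 0.28 at 40/35 °C (adjusted p = 2.94e-05). Its heat response itself was not called different between the materials, with a difference of 0.55 ± 0.43 at 38/33 °C (adjusted p = 0.479) and -0.25 ± 0.45 at 40/35 °C (adjusted p = 0.801). The second full asparagine synthetase, Os06g0265000 (TRINITY_DN33800_c0_g1), fell. It had 11.6, 18.01 and 14.5 TPM in MH control, 4.69, 6.16 and 8.95 TPM in MH 38, 3.34, 3.03 and 2.95 TPM in MH 40, and its Ken means were 17.95 TPM without heat, 3.53 TPM at 38/33 °C and 4.28 TPM at 40/35 °C. Its changes were -1.93 ± 0.26, -3.13 ± 0.27, -2.81 ± 0.27 and -2.48 ± 0.27 in MH 38, MH 40, Ken 38 and Ken 40. The domain protein ASNSD1 rose by 0.80 ± 0.24 in MH 38, 0.83 ± 0.24 in MH 40 and 0.74 ± 0.24 in Ken 40.

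Asparaginases release the amide nitrogen of asparagine, and of 5 tested entries 4 fell in MH 38, 4 in MH 40, 4 in Ken 38 and 3 in Ken 40, with no rise. At3g16150 (TRINITY_DN51004_c1_g4), matched to L-asparaginase 2 of Arabidopsis, had 171, 204 and 189 TPM in MH control, 1.72, 1.59 and 5.18 TPM in MH 38, and 0.26, 0.71 and 0.70 TPM in MH 40. In Ken it had 190, 195 and 167 TPM in the control, 0.42, 0.67 and 0.22 TPM at 38/33 °C, and 0.39, 0.13 and 0.24 TPM at 40/35 °C. The highest heated library had 5.18 TPM. It fell by -6.62 ± 0.54 in MH 38, -9.19 ± 0.62 in MH 40, -9.46 ± 0.63 in Ken 38 and -9.86 ± 0.65 in Ken 40 (adjusted p at most 4.58e-07), and by -7.50 in MH 38 without replicate 3. Its cluster partner (TRINITY_DN51004_c1_g1) had no rounded count in any library of Ken 38 or Ken 40 and was at least 183-fold and at least 159-fold lower there, against a floor of 3 counts per library.

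The other 3 asparaginase entries changed less. TRINITY_DN61173_c0_g2, matched to lupin, had 31.9, 28.2 and 17.9 TPM in MH 38 and 20.4, 19.3 and 24.3 TPM in MH 40, against 42.1, 30.9 and 29.9 TPM in MH control, and fell by -1.13 ± 0.19 and -1.47 ± 0.19 (adjusted p = 4.86e-05 and 8.6e-07). The first of these calls was lost with library totals as the scaling, at -0.29. In Ken, where it averaged 52.6 TPM in the control and was the second most abundant asparaginase, its changes were -0.19 ± 0.18 and -0.03 ± 0.18 (adjusted p = 0.445 and 0.948). At5g61540 (TRINITY_DN49605_c1_g3) fell in Ken 38 by -1.73 ± 0.23, in Ken 40 by -1.11 ± 0.22 and in MH 40 by -1.30 ± 0.23 (-0.29 and not called with library totals), and in MH 38 by -0.55 ± 0.22 (adjusted p = 0.0482), a call lost with RLE size factors, with TMM factors of described genes and with DESeq2, and turned to 0.27 with library totals as the scaling. At5g08100 was called in Ken 38 alone, at -1.17 ± 0.46 (adjusted p = 0.0496), a call kept in 2 of 18 fits without 1 library and lost under other scalings.

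Glutamate decarboxylase is the entry to the GABA shunt, and of 3 tested entries 1 rose in MH 38, 2 rose in MH 40, 1 fell in Ken 38 and none was called in Ken 40. GAD1 (TRINITY_DN49781_c0_g1) had 24.5, 31.8 and 22.6 TPM in MH control, 112, 123 and 55.3 TPM in MH 38, and 116, 136 and 138 TPM in MH 40. Its levels in Ken were 60.8, 57.7 and 54.0 TPM in the control, 48.2, 59.2 and 61.4 TPM at 38/33 °C, and 54.7, 47.3 and 63.2 TPM at 40/35 °C. Heated and control libraries did not overlap in MH and overlapped in Ken. It rose by 1.16 ± 0.20 in MH 38 (adjusted p = 9.33e-05) and 1.57 ± 0.20 in MH 40 (adjusted p = 1.1e-06), and its changes in Ken were -0.50 ± 0.20 and -0.46 ± 0.20 (adjusted p = 0.0547 and 0.0653), both called without MH 38 replicate 3 (adjusted p = 0.00677 and 0.00983).

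GAD (TRINITY_DN43982_c1_g1), matched to petunia, had 55.6, 64.7 and 36.9 TPM in MH 40, against 11.8, 13.4 and 3.29 TPM in MH control, and rose by 1.71 ± 0.58 (adjusted p = 0.0198). In Ken 40 it had 9.89, 14.1 and 12.3 TPM, against 2.86, 6.05 and 2.06 TPM in Ken control (1.35 ± 0.59, adjusted p = 0.0759), a change called at 1.81 with library totals, 1.59 with TMM factors of described genes and 1.55 with DESeq2. It fell in Ken 38 by -1.83 ± 0.61 (adjusted p = 0.0329, called in 9 of 18 fits without 1 library and lost under other scalings). GAD5, an entry of 472 bases, was not called against the controls, and with library totals it was called in MH 38 at 1.87.

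Between the second heat step and the first, most members were not called in either material. The groups at 40/35 °C had also been in heat for longer, and temperature and time in heat cannot be told apart. In MH 40 against MH 38, 6 members rose and 18 fell (47.1% called, 26.2% of all genes and 37.5% of described ones). In Ken 40 against Ken 38, 12 rose and 6 fell (35.3% called, 30.5% of all genes and 41.1% of described ones), a share between both backgrounds. GLN1-1 fell further in MH, by -2.90 ± 0.53 (adjusted p = 0.00154), and its change in Ken was -0.46 ± 0.49 (adjusted p = 0.516). NIA1 fell by -5.11 ± 1.08 in this step in MH (adjusted p = 0.00413), while it rose in Ken, with 195 counts in Ken 40 and 2 in Ken 38 (adjusted p = 0.00176). AMT3-2 rose in Ken by 2.49 ± 0.42 (adjusted p = 0.000401), and its change in MH was -0.06 ± 0.38 (adjusted p = 0.934).

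Without heat 3 members were higher and 13 lower in MH than in Ken (31.4% called, 21.8% of all genes and 27.3% of described ones). NIA1 was higher in MH control by 2.17 ± 0.66 (adjusted p = 0.0329), as were AMT2-1 and AMT1-2 (TRINITY_DN55666_c1_g1), by 1.65 ± 0.34 and 1.40 ± 0.39. GAD1 was lower in MH control by -1.11 ± 0.20 (adjusted p = 0.00031), and GDH1 (TRINITY_DN59177_c1_g1) by -1.68 ± 0.25 (adjusted p = 4.73e-05). At 38/33 °C 8 members were higher and 9 lower in MH (33.3% called, 34.7% of all genes and 37.4% of described ones), and at 40/35 °C 9 were higher and 27 lower (70.6% called, 48.5% of all genes and 55.1% of described ones). At 40/35 °C 6 of 8 glutamate dehydrogenase and 6 of 9 glutamine synthetase entries were lower in MH 40 than in Ken 40, and none was higher. For GDH2, counted among them at -0.94 ± 0.28, the mean TPM went the other way, with 17.4 in MH 40 and 12.7 in Ken 40. Some of the entries counted share an assembly cluster. GDH1 (TRINITY_DN59177_c1_g1 and TRINITY_DN33613_c1_g1) and GLN1 (TRINITY_DN37664_c0_g1) were already lower in MH control, by -1.68, -1.80 and -3.54. Their differences in heat response at 40/35 °C were 0.16, -0.33 and 1.91, and none of these was called.

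The heat response itself differed between MH and Ken in 11 members at 38/33 °C (7 higher and 4 lower in MH, 21.6% called, 10.8% of all genes and 16.4% of described ones) and in 21 at 40/35 °C (5 higher and 16 lower, 41.2% called, 21.4% of all genes and 31.3% of described ones). NIA1 had the largest called difference at 40/35 °C among the named members, -7.59 ± 1.26 (adjusted p = 0.000924), since it fell much further in MH than in Ken. NIR differed by -3.43 ± 0.95 (adjusted p = 0.0223; not called with library totals, at -2.86), AMT1-1 by -2.58 ± 0.56 (adjusted p = 0.00178) and the second AMT1-2 entry by -2.34 ± 0.53 (adjusted p = 0.00476). ASP5, TRINITY_DN61651_c0_g1 and the asparaginase TRINITY_DN61173_c0_g2 were lower in the MH response, by -1.29 ± 0.20, -1.61 ± 0.26 and -1.44 ± 0.26 (adjusted p = 7.4e-05, 8.9e-05 and 0.000346).

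GAD1 was higher in the MH response at both temperatures, by 1.66 ± 0.28 at 38/33 °C (adjusted p = 0.000577) and 2.02 ± 0.29 at 40/35 °C (adjusted p = 2.15e-05). At 38/33 °C AMT3-2 differed by 4.21 ± 0.57 (adjusted p = 0.000253) and aspC by 1.73 ± 0.29 (adjusted p = 0.000481), as AMT3-2 fell further in Ken and aspC was called in Ken alone. Of 9 tested glutamine synthetase entries 3 were lower in the MH response at 40/35 °C and none was called higher. TRINITY_DN59099_c0_g3, not among the named members, was at 2.345 ± 0.82 (adjusted p = 0.0562), larger in size than the called differences. The chloroplastic TRINITY_DN63860_c2_g1 differed by -2.16 ± 0.60 (adjusted p = 0.0197), GLN1 (TRINITY_DN59099_c0_g2) by -2.19 ± 0.72 (adjusted p = 0.0483) and TRINITY_DN59099_c0_g5 by -2.15 ± 0.71 (adjusted p = 0.047, called in 3 of 18 fits without 1 library), and the calls of GLN1 and TRINITY_DN59099_c0_g5 were lost with library totals and with TMM factors of described genes. GLN1-1 was at -2.05 ± 0.70 (adjusted p = 0.0544), the chloroplastic TRINITY_DN42559_c0_g2 at -1.30 ± 0.60 (adjusted p = 0.145) and the GLN1 entry TRINITY_DN37664_c0_g1 at 1.91 ± 0.66 (adjusted p = 0.0518; called with RLE size factors, library totals, TMM factors of described genes and DESeq2). The count of 11 at 38/33 °C was 20 without MH 38 replicate 3, 6 without Ken control replicate 1 and 6 without MH control replicate 1, and the count of 21 at 40/35 °C was 12 without Ken control replicate 1.

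**Figure D4:**
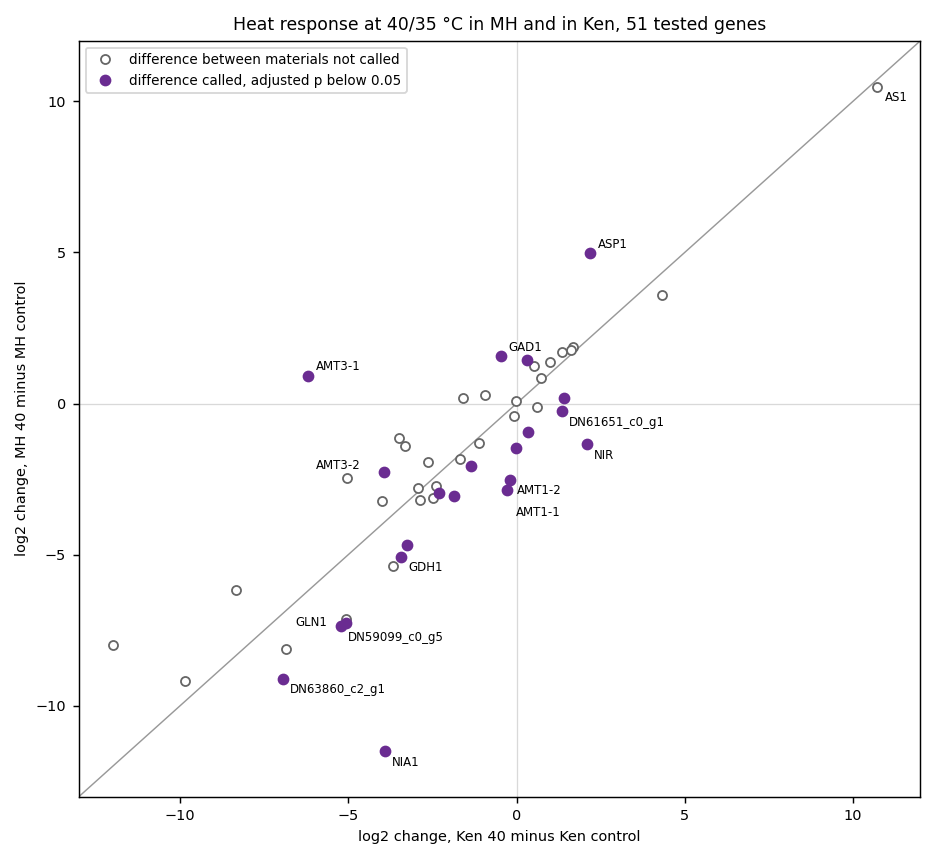
Log2 change of the 51 tested members at 40/35 °C against the control in Ken (horizontal) and MH (vertical), with the line of equal change. Filled points are the 21 members whose responses differed at an adjusted p below 0.05 in edgeR, and those that differ most carry a name. AS1 lies close to the line at the upper right (10.47 in MH, 10.72 in Ken), NIA1 and NIR lie below it, and GAD1 and AMT3-1 above it.

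AMT3-1 (TRINITY_DN56351_c1_g3), singled out here after its values were seen, had 2.46, 6.14 and 6.11 TPM in MH 40 and 0, 0.04 and 0 TPM in Ken 40 (adjusted p = 8.25e-07). In MH control it had 1.46, 2.98 and 0.76 TPM, and in Ken control 1.26, 1.27 and 0.57 TPM, so the materials overlapped without heat. Ken 40 held 1 count, against 78 in Ken control, a ratio per library total of 0.014 (exact 95% interval 0.000351 to 0.0805).

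Other genes of nitrogen metabolism, in lists by text pattern, moved in both directions, as did described genes at large. Of all described genes 23.2% rose and 30.6% fell in MH 38, and 29.7% rose and 42.1% fell in MH 40. In Ken 38 18.8% rose and 29.2% fell, and in Ken 40 23.4% rose and 32.5% fell. The lists were not tested against these shares. Of 8 tested entries for nitrate uptake and nitrogen sensing 1 rose and 3 fell in MH 38, 1 rose and 4 fell in MH 40, 1 rose and 3 fell in Ken 38, and 3 rose and 3 fell in Ken 40. NAR2.1 (TRINITY_DN57238_c0_g1), which activates high-affinity nitrate transporters, had the same order of levels as NIR in Ken, with means of 36.2 TPM in Ken control, 19.8 TPM in Ken 38 and 115 TPM in Ken 40, and rose in Ken 40 by 1.27 (adjusted p = 2.46e-05). In MH it averaged 22.7, 9.38 and 15.9 TPM and fell in MH 40 by -1.28 (adjusted p = 1.58e-05). The NIR means in MH had this order too, at 46.55, 9.84 and 31.2 TPM, the last with a wide spread. Of 10 entries for siroheme and molybdenum cofactor, the prosthetic groups of nitrite and nitrate reductase, 3 rose and 5 fell in MH 40 and 4 rose and 4 fell in Ken 40. Siroheme synthase (cysG, TRINITY_DN58774_c0_g1) rose in Ken 40 by 1.37 (adjusted p = 3.82e-05), and its change in MH 40 was 0.09 (adjusted p = 0.746).

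Among 15 tested entries that supply carbon skeletons, 2 rose and 9 fell in MH 40 and 8 rose and 2 fell in Ken 40. NADP isocitrate dehydrogenase (TRINITY_DN57924_c0_g1), a source of 2-oxoglutarate, averaged 42.4, 109 and 145 TPM in MH and 34.1, 113 and 284 TPM in Ken at the 3 temperatures, and it rose in all 4 comparisons. Phosphoenolpyruvate carboxylase 2 (TRINITY_DN54326_c0_g1), which refills the organic acids used for amino acids, fell in MH 40 by -2.42 (adjusted p = 1.38e-09) and rose in Ken 40 by 0.51 (adjusted p = 0.0344). Of 7 entries of the GABA shunt after glutamate decarboxylase 3 rose and 4 fell in MH 40 and 2 rose and 3 fell in Ken 40. GABA transaminase (OsI_28220, TRINITY_DN35169_c0_g2) fell in all 4 comparisons, by -2.16 in MH 40 and -1.43 in Ken 40. Succinate-semialdehyde dehydrogenase (TRINITY_DN46563_c2_g1) went the other way in Ken 40, where it rose by 0.75 (adjusted p = 0.000936). Its change in Ken 38 was 0.145 (adjusted p = 0.534), and it fell in MH 40.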

How the data were processed

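Leaf RNA-seq of 18 libraries was analysed from a table the authors deposited for the whole series, with 1 row for each assembled gene. Reads were trimmed with cutadapt 1.9, per the submitters' processing notes, and neither the assembler nor the quantifier is given in the sources used here. The authors' deposited table holds estimated counts per gene, which were rounded to whole numbers for the tests, and a second, unnamed set of columns, read as TPM because each library summed to 967894 to 991008. Groups came from the sample titles. No library was left out of the main fit.

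Genes with low counts were removed with edgeR's filterByExpr (min.count 10, min.total.count 15), leaving 70022, of which 29143 are described. edgeR 4.0.16 in R 4.3.3 fitted 6 group means over all 18 libraries with TMM factors and the robust quasi-likelihood test, and p-values were adjusted by Benjamini and Hochberg in each of 11 comparisons. The heat response difference is MH heated minus MH control, less Ken heated minus Ken control. The main fit dropped and imputed no sample. Total counts set the precision, and exact intervals cover counting error only.

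Members were taken by text pattern in the Swiss-Prot description, or the nr description where none was given. The members and the gene lists were chosen with earlier results of these data known. Named members are AS1, up to 4 per family with the highest mean TPM of at least 1, and up to 4 further called ones per family with the smallest adjusted p, no overlap and a mean of at least 5 TPM; each list has at most 2 named entries, those of highest mean TPM.

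Alternatives were DESeq2 1.42.0, other scalings, other filters, only the groups compared, an adjusted p of 0.01, the replicate number as a block and leaving out each library. The set without 5 tested entries of another annotation was chosen after seeing the data. In simulated counts of 35914 genes for MH 40 against MH control, 100 genes were changed 4-fold and 100 were changed 2-fold. The test found 43% and 4% of them, with 1 false call in 48. For Ken 38 against Ken control it found 50% and 6%, with 2 false calls in 58. In the real data 67.4% of all genes were called in MH 40, so the adjusted p acted at another cutoff there. The simulated shares therefore do not give the power of the reported tests, and small changes may still be missed. Tables were handled with pandas 2.3.3 in Python 3.11.15.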

Additional observations from a re-analysis of the deposited data

Results flagged for a closer look

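For the named members below the heat response differed between MH and Ken at an adjusted p below 0.05 in edgeR, a test of the difference itself. With 3 libraries in each group, no outlier test of single libraries was run, and MH 38 replicate 3 is described with its values in the results. All values are log2, heat response in MH minus that in Ken.

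At 40/35 °C the nitrate reduction genes were lower in the MH response, NIA1 by -7.59 and NIR by -3.43. So were AMT1-1 at -2.58, AMT1-2 (TRINITY_DN55666_c1_g2) at -2.34 and TRINITY_DN63879_c1_g1 at -1.17. AMT3-2 was higher by 1.65, a call kept in 4 of 18 fits that left out 1 library. Of the glutamine synthetases, TRINITY_DN59099_c0_g5 was at -2.15, GLN1 (TRINITY_DN59099_c0_g2) at -2.19 and the chloroplastic TRINITY_DN63860_c2_g1 at -2.16. GDH1 entries were at -1.42 (TRINITY_DN33613_c1_g2) and -1.63 (TRINITY_DN59177_c1_g3), GDH2 at -1.23 and TRINITY_DN61651_c0_g1 at -1.61. FdGOGAT was at -0.65 and FPGS2 at -0.71. ASP5 was at -1.29 and the asparaginase TRINITY_DN61173_c0_g2 at -1.44, while ASP1 was higher by 1.12 and GAD1 by 2.02.

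At 38/33 °C AMT3-2 was higher in the MH response by 4.21, the asparaginase At3g16150 (TRINITY_DN51004_c1_g4) by 2.84, aspC by 1.73, GAD1 by 1.66, At5g61540 by 1.18, ASP1 by 1.01 and Os01g0760600 by 0.78. AMT1-2 (TRINITY_DN55666_c1_g1) was lower by -2.35, FPGS1 by -1.13, GLT1 by -1.03 and TRINITY_DN61173_c0_g2 by -0.94.

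When scaling used library totals alone, the call at 40/35 °C was lost for NIR, TRINITY_DN63879_c1_g1 (-0.64), TRINITY_DN33613_c1_g2 (-0.88), GDH2 (-0.72), FdGOGAT (-0.11), FPGS2 (-0.18), TRINITY_DN59099_c0_g5 (-1.62) and GLN1 (-1.65), and at 38/33 °C for GLT1 (-0.79) and TRINITY_DN61173_c0_g2 (-0.67). With TMM factors of described genes it was lost for GDH2, FdGOGAT, FPGS2, TRINITY_DN59099_c0_g5 and GLN1. FdGOGAT and FPGS2 also lost it with RLE size factors and with DESeq2.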

How the results depend on the processing

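Counts of called members stayed within 1.5 times of the main count under other scalings, filters and DESeq2. Exceptions were MH 38 against Ken 38 (17), at 11 with only the groups compared and 10 at an adjusted p below 0.01, and the heat response differences at 38/33 °C (11) and 40/35 °C (21), at 5 and 11 under that threshold. Without 1 library these differences ranged from 6 to 20 and from 12 to 26. With library totals as the only scaling these MH 38 changes turned positive: At5g61540 0.27, ASP5 0.35, aspC 0.58, GDH2 0.68, GLT1 0.73 and FPGS1 0.10. In MH 40 ASP5 was then at 0.056, TRINITY_DN58079_c0_g1 at 0.89 (0.47 with TMM factors of described genes), TRINITY_DN61651_c0_g1 at 0.75 and FPGS1 at 0.59, and ASP2 in MH 40 against Ken 40 at 0.025. The construction of this scaling shifts all genes of a library together. GLN1-1 in MH 38 against Ken 38 ranged from -0.84 (without MH 38 replicate 3) to 0.66. The cause of the other changes was not tested.

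With a replicate block the counts were 41 in MH 38, 42 in MH 40, 35 in Ken 38 and 42 in Ken 40 against the controls, and 12 and 20 for the response differences. Correlations of same-numbered libraries, paired by the replicate number in the titles, lay between -0.107 and 0.0786. Some MH library names carry other numbers, and these correlations do not show whether libraries shared a plant or batch. Of the named results 8 became called and 6 lost their call.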

Other observations

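Other genes of amino acid metabolism were counted in lists made by text pattern, and many described genes of any kind changed as well. Called were 53.8% of described genes in MH 38, 71.7% in MH 40, 48% in Ken 38 and 55.9% in Ken 40. The lists were not tested against these shares. Of 63 tested amino acid transport entries 8 rose and 30 fell in MH 38, 10 rose and 37 fell in MH 40, 10 rose and 23 fell in Ken 38, and 12 rose and 28 fell in Ken 40. CAT2 (TRINITY_DN61596_c1_g1), matched to a vacuolar cationic amino acid transporter, went against that direction, with means of 22.7, 258 and 545 TPM in MH and 18.4, 71.7 and 105 TPM in Ken at 25, 38 and 40 °C by day. Its rise in MH 40 was 3.54 ± 0.20, against 2.20 ± 0.19 in Ken 40, and the difference was 1.34 ± 0.26 (edgeR, adjusted p = 0.000588). LHT1 (TRINITY_DN50223_c1_g1), a lysine and histidine transporter by description, rose in all 4 comparisons, by 1.11 ± 0.21 in MH 40 and 2.38 ± 0.22 in Ken 40.

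Of 10 aspartate family entries, which make lysine, threonine and methionine, 4 rose and 5 fell in MH 40, and 4 rose and 3 fell in Ken 40. Aspartate-semialdehyde dehydrogenase (asd, TRINITY_DN39870_c0_g2) rose in all 4 comparisons, by 2.66 ± 0.23 in MH 40 and 1.66 ± 0.23 in Ken 40. DAPB3 (TRINITY_DN56803_c1_g1), a dihydrodipicolinate reductase-like protein by description, fell in all 4 comparisons, by -3.85 ± 0.65 in MH 40 and -6.23 ± 0.75 in Ken 40. Of 25 entries for branched-chain amino acid breakdown 13 rose and 5 fell in MH 40, and 11 rose and 3 fell in Ken 40. Of 5 proline entries 1 rose and 1 fell in MH 40, and 2 rose and 2 fell in Ken 40. Of 11 tested ureide and urea entries 1 rose and 6 fell in MH 40, and 2 rose and 3 fell in Ken 40. UREG (TRINITY_DN57534_c0_g1), a urease accessory protein, fell in MH 40 by -2.54 ± 0.31 and changed by -0.66 ± 0.30 in Ken 40 (adjusted p = 0.0773).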
